A study of Mus musculus with 6 samples.

Results

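Map4k4, Ncl, Lamc1 and Ptprn are 4 of the 21686 genes in the deposited gene table, and 63 of the 10537 transcripts in the deposited transcript table, which covers chromosome 1, carry one of these names. They were chosen by their measured values, namely transcripts whose FPKM (the fragments of a transcript scaled by its length and by the size of the library) differed between dexamethasone and control. The values of that contrast are therefore given below as a description, without a test. The cells were MC3T3-E1 Subclone 14, 1 clone of an osteoblast line derived from mouse skull bone, in 3 groups of 2 libraries each. The control group received 100 µL of PBS. The dexamethasone group received 10 µM dexamethasone, a synthetic glucocorticoid. The dexamethasone + EPC-EVs group received 10 µM dexamethasone together with 100 µg of extracellular vesicles from endothelial progenitor cells. All groups were collected at 72 h, and the study calls the samples of a group biological replicates.

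The 4 genes do different work. Map4k4 encodes a serine/threonine kinase of the MAP4K family, which signals to the JNK cascade and to the Hippo pathway kinases. Ncl encodes nucleolin, an abundant RNA-binding protein of the nucleolus needed for the transcription and processing of ribosomal RNA. Lamc1 encodes the gamma 1 chain found in most laminins, the trimers that form basement membranes. Ptprn encodes a receptor-type protein tyrosine phosphatase without catalytic activity that sits in the membrane of dense-core secretory vesicles and is known mainly from neuroendocrine cells. One gene can give several mature transcripts when an internal exon is left out, when an intron is kept, or when transcription starts or ends at another place. A kept intron often holds a transcript in the nucleus or exposes it to nonsense-mediated decay.

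On mouse build GRCm38, Map4k4 (ENSMUSG00000026074.14) lies on the + strand at chr1:39900913-40026310. Ptprn (ENSMUSG00000026204.15) lies on the - strand at chr1:75247027-75264502, Ncl (ENSMUSG00000026234.12) on the - strand at chr1:86344719-86359400, and Lamc1 (ENSMUSG00000026478.14) on the - strand at chr1:153218922-153332786. Ncl hosts 4 small RNA genes on its own strand, among them Snora75 and Snord82. Ptprn overlaps Gm28294 on the other strand, and Lamc1 overlaps Gm38009 on its own strand and Gm8818 on the other. Of the 63 transcripts, 34 had an Ensembl identifier, 17 were assembled from the reads with several exons (names beginning with MSTRG), and 12 were assembled with 1 exon. One of these, MSTRG.4441.1, lies on the strand opposite to Ptprn although it carries that gene name.

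The deposited table gives the start, end, exon number and length of an assembled transcript but not its exons. For 12 of the 17 spliced assembled transcripts, exactly 1 set of junctions from the GENCODE annotation fitted these values. For the other 5, none did, and their structure was left undetermined. The fitted structures placed part of the differences between transcripts in a few exons and introns, whose sequences follow because the results turn on them. In the exons of Map4k4 the capitals mark the optional exon and the lower case the 15 bases of the neighbouring exons on either side in an annotated transcript. Both exons lie in coding sequence, have a length divisible by 3 and sit next to each other on the + strand, at chr1:40001430-40001591 and chr1:40003757-40003987.
Map4k4 162-base exon: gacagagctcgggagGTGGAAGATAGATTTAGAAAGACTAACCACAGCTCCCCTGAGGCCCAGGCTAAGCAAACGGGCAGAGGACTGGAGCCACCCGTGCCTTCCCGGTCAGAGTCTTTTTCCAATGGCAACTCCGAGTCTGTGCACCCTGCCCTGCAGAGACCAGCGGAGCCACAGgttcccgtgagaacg
Map4k4 231-base exon: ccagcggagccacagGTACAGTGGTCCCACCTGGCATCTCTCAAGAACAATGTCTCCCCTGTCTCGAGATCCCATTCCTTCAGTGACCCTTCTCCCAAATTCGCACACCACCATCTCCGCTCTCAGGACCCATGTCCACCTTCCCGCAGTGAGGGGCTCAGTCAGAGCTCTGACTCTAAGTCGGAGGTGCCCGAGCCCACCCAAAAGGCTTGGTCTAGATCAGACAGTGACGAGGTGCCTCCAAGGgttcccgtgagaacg
In the following junctions the lower case marks the last 25 bases of the upstream exon and the capitals the first 25 bases of the downstream exon, so that each shows the spliced form that is lost when the named intron is kept. The Ncl intron of 98 bases lies at chr1:86356458-86356555, and the Ptprn introns of 225 and 338 bases lie at chr1:75252546-75252770 and chr1:75251918-75252255, all on the - strand.
Ncl junction in place of the 98-base intron: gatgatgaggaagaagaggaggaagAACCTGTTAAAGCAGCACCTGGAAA
Ptprn junction in place of the 225-base intron: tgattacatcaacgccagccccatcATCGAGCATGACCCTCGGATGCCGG
Ptprn junction in place of the 338-base intron: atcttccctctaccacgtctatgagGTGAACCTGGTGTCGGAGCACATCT
The last pair shows how both protein-coding models of Lamc1 leave the same exon (lower case) for different ones (capitals). Lamc1-204 skips to a site inside the last exon of Lamc1-201.
Lamc1-201 junction: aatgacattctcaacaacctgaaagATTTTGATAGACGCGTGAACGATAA
Lamc1-204 junction: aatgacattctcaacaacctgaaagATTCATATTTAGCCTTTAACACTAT
All sequences were taken from the GENCODE vM21 transcripts.

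The libraries held between 5146760 and 13182014 counted fragments, and both dexamethasone + EPC-EVs libraries were the deepest, so depth moved with that group. The summed transcript FPKM of the chromosome 1 table was 48718 to 49226 in control, 42719 to 42850 in dexamethasone and 19754 to 20155 in dexamethasone + EPC-EVs, and the transcript test below was therefore repeated after each library was scaled to one median. Of 10 osteoblast markers, 5 averaged above 10 CPM (the count of a gene scaled for the depth and composition of its library by the TMM method) over the 6 libraries. Runx2, a transcription factor of the osteoblast lineage, had 152 to 202 CPM. Of the 7 markers tested in dexamethasone + EPC-EVs against dexamethasone, 3 rose and 1 fell (edgeR, adjusted p under 0.05). In this contrast, 39.8% of all genes tested were called. Col1a1, which encodes a chain of the main bone collagen, rose from 2428 and 2905 to 8770 and 6914 CPM, while Spp1, which encodes osteopontin, fell from 10693 and 10568 to 6104 and 4405 CPM. Alpl, Ibsp, Bglap and Pth1r, which mark more mature osteoblasts, did not exceed 6.57 CPM in any library. Of 8 neuroendocrine markers, 6 were not in the gene table, Syp stayed at or under 0.863 CPM and Tubb3 had 1.65 to 7.80 CPM. The summed level of the 6 endothelial markers in the table was 7.82 to 7.96 CPM in control, 3.79 to 4.86 CPM in dexamethasone and 3.48 to 5.18 CPM with vesicles. The summed level of the 5 immune markers was 11.7 to 12.1 CPM in control, 17.2 to 18.99 CPM in dexamethasone and 19.01 to 54.2 CPM with vesicles, where Csf1r alone had 37.0 CPM in EPC-EVs replicate 2. That of the 4 adipocyte markers was 2.79 to 7.33 CPM in control, 4.27 to 9.90 in dexamethasone and 0.157 to 0.713 with vesicles, and Fabp4, a fatty acid carrier of adipocytes, fell by 3.76 on the log2 scale in dexamethasone + EPC-EVs against dexamethasone (adjusted p = 0.0107, edgeR). The part of these cell type markers in the results below was not tested.

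At the gene level, Ncl was the member with the largest difference after vesicle treatment. Its counts were 4832 and 4259 in control, 4189 and 3975 in dexamethasone, and 1279 and 1485 in the deeper dexamethasone + EPC-EVs libraries. On the TMM-scaled CPM, this was 817 ± 42.9 CPM in control, 598 ± 17.4 in dexamethasone and 109 ± 10.8 with vesicles (SD, n = 2). In dexamethasone + EPC-EVs against dexamethasone, Ncl fell by 2.502 on the log2 scale (SE 0.13, adjusted p = 3.21e-07 by the edgeR quasi-likelihood test). Map4k4 counts were 3338 and 3424 in control, 3856 and 4041 in dexamethasone, and 4527 and 5854 with vesicles. These are 613 ± 97.5, 578 ± 23.7 and 409 ± 71.4 CPM (SD, n = 2). Map4k4 fell by 0.55 against dexamethasone (log2 scale, SE 0.14, adjusted p = 0.00815, edgeR), and without dexamethasone replicate 1 or 2 the adjusted p was 0.0775 or 0.114 at a similar log2 difference (-0.57 or -0.502) and a larger SE (0.198). On CPM, both EPC-EVs libraries of Map4k4 and of Ncl lay below all 4 other libraries. How many other genes did so was not counted. In bulk RNA, fewer cells with a transcript and less of it per cell cannot be told apart.

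Lamc1 and Ptprn did not pass the test. Lamc1 counts were 4130 and 3484 in control, 4636 and 4583 in dexamethasone, and 7815 and 7538 with vesicles. Lamc1 had 683 ± 14.7 CPM in control, 675 ± 0.158 in dexamethasone and 605 ± 19.3 with vesicles (SD, n = 2), a log2 difference of -0.20 between the dexamethasone + EPC-EVs and dexamethasone groups (SE 0.11, adjusted p = 0.17, edgeR). Ptprn counts were 1003 and 483 in control, 1201 and 1201 in dexamethasone, and 2141 and 2098 with vesicles. Its level was 163 and 96.1 CPM in the control libraries, 176 ± 1.39 in dexamethasone and 167 ± 3.45 with vesicles (SD, n = 2), a log2 difference of -0.12 between the vesicle and dexamethasone groups (SE 0.13, adjusted p = 0.494, edgeR). The 2 control libraries of Ptprn thus lay further apart than the 4 treated ones.

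Against control, Ncl fell by 2.96 on the log2 scale (SE 0.19, adjusted p = 9.15e-05, edgeR) and Map4k4 by 0.63 (SE 0.20, adjusted p = 0.0393, edgeR), and Map4k4 was not called without control replicate 2 (log2 difference -0.44, adjusted p = 0.124) or EPC-EVs replicate 1 (-0.45, adjusted p = 0.304). The log2 differences of Lamc1 and Ptprn were -0.22 (SE 0.16, adjusted p = 0.317, edgeR) and 0.32 (SE 0.25, adjusted p = 0.359, edgeR). Without control replicate 1, the adjusted p of Ptprn was 0.0104 with a log2 difference of 0.79, and without control replicate 2 it was 0.986 with a log2 difference of 0.0050. Of the genes tested, 39.8% were called against dexamethasone and 36.4% against control, so 2 of 4 members called in each is close to the rate over all genes. The members were chosen with the dexamethasone and control libraries that both contrasts share, though through their transcripts. For dexamethasone against control, in which 0.0544% of genes were called, the log2 differences were -0.46 for Ncl, 0.43 for Ptprn, -0.09 for Map4k4 and -0.02 for Lamc1, given as values only. Without control replicate 1 or 2 these were 0.87 or 0.11 for Ptprn, -0.24 or 0.095 for Map4k4 and -0.04 or 0.011 for Lamc1, so the signs of the last 2 depended on control replicate 2.

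**Figure D1:**
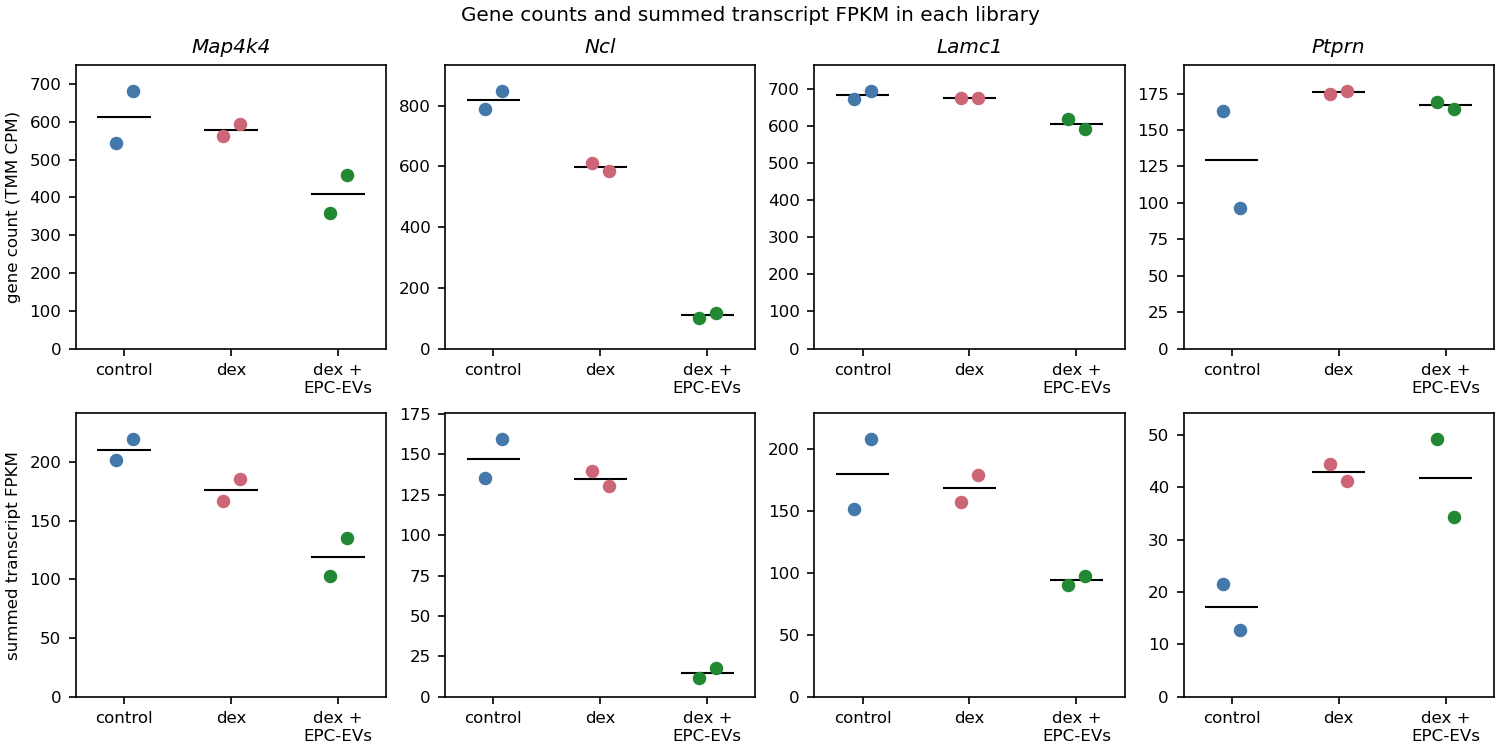
Gene level (upper row, TMM-scaled CPM) and summed FPKM of all transcripts (lower row) of the 4 genes, with 1 point per library and a bar at the mean of the 2 libraries of a group. Ncl was near 109 CPM with vesicles against 598 CPM in dexamethasone, while Ptprn had a higher transcript sum in the dexamethasone libraries (44.4 and 41.2) than in control (21.6 and 12.7).

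Per length, on the deposited gene FPKM, Lamc1 was the highest member in every library (69.1 to 85.1). Ncl had 59.3 to 81.2 in control and dexamethasone and 9.76 and 11.1 with vesicles, Map4k4 36.7 to 69.5, and Ptprn 22.1 to 43.0. The gene counts and the transcript FPKM came from different tools. Each transcript's FPKM multiplied by its length in kb and summed over a gene equalled 59.4 to 77.2% of the gene's CPM on its unadjusted library total for Map4k4, 56.9 to 77.5% for Ncl, 60.04 to 87.8% for Lamc1 and 40.5 to 71.7% for Ptprn. The lowest of these were for Ptprn in control (40.5 and 46.1%). The library totals behind the FPKM were not compared with those behind the counts, so these are ratios of 2 scales and not shares of the counted fragments.

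The transcripts of Map4k4 that carried most of its FPKM were different in control and dexamethasone. Of its 28 transcripts, 7 made up at least 10% of the gene's summed FPKM in at least 1 library, and the other 21 together held 12.6 to 35.0%. Map4k4-204 (ENSMUST00000191761.5), an annotated fragment of 12 exons and 1272 bases from the start of the gene whose annotated end is incomplete, had an FPKM of 76.2 and 72.9 in control, 0.0236 and 0.0405 in dexamethasone, and under 0.001 in both libraries with vesicles. It held 37.8 and 33.2% of the gene in control. Its exons are also exons of the full-length models. One of these, Map4k4-209, with 31 exons and 3918 bases, was listed at 0 in both control libraries and at 16.9 and 12.7 in dexamethasone and 7.48 and 5.63 with vesicles.

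The back of the gene was carried by a pair of assembled transcripts with the same start and end, MSTRG.1757.19 (17 exons, 2254 bases) and MSTRG.1757.20 (16 exons, 2020 bases). In the fitted structures, MSTRG.1757.19 holds the 231-base exon and lacks the 162-base exon, and MSTRG.1757.20 lacks both. A later exon also starts at chr1:40006671 in MSTRG.1757.19 and at chr1:40006674 in MSTRG.1757.20. The FPKM of MSTRG.1757.19 was 75.4 and 92.6 in control, 30.4 and 22.5 in dexamethasone, and 14.1 and 24.3 with vesicles. The FPKM of MSTRG.1757.20 was listed at 0 in both controls and was 61.0 and 69.4 in dexamethasone and 26.04 and 56.5 with vesicles. The pair summed to 75.4 and 92.6 in control and to 91.4 and 91.9 in dexamethasone, while with vesicles it summed to 40.1 and 80.9. The control and dexamethasone sums were close, and their division between the transcripts was not.

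**Figure D2:**
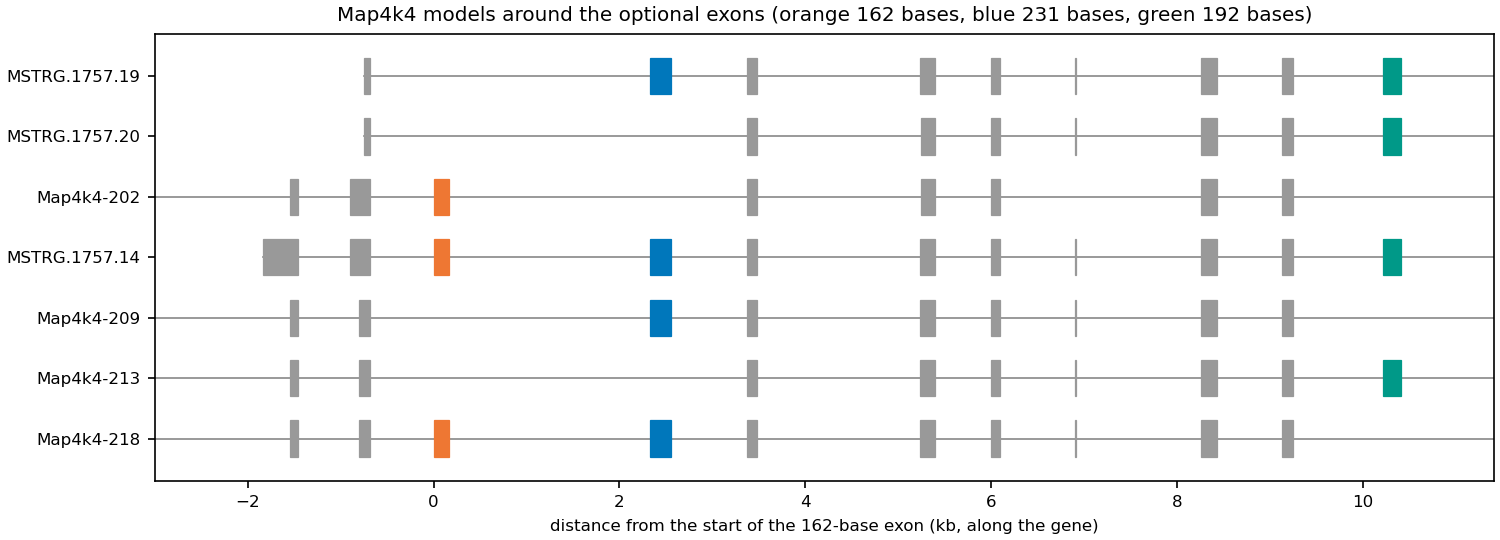
Exons of 7 Map4k4 transcripts around the optional exons, with boxes to scale and distance in kb from the start of the 162-base exon, which is orange, while the 231-base exon is blue and a 192-base exon green. MSTRG.1757.19 has the blue exon and MSTRG.1757.20 lacks it, and neither has the orange one.

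Summed over all transcripts that span the 231-base exon and have a known structure (8 with it and 8 without), the exon was present in 83.7 and 96.2% of the FPKM in control, 43.8 and 39.6% in dexamethasone, and 42.7 and 29.3% with vesicles. The dexamethasone and vesicle groups overlapped, and both lay below control. The 162-base exon was present in 3.25 and 3.56% in control, 11.4 and 14.8% in dexamethasone, and 36.2 and 21.5% with vesicles, so that no group overlapped another. Much of the last value came from Map4k4-202, a protein-coding model of 30 exons that has the 162-base exon and lacks the 231-base exon. It was listed at 0 in both controls and had an FPKM of 3.64 and 1.70 in dexamethasone and 13.5 and 17.6 with vesicles. MSTRG.1757.14, which holds all the optional exons, had 10.7 in EPC-EVs replicate 1 and 1.21 in replicate 2. A 192-base exon further on, at chr1:40011650-40011841, was present in 98.9 and 96.6% in control, 76.8 and 81.5% in dexamethasone and 69.6 and 76.4% with vesicles. A 9-base exon, at chr1:40008331-40008339, was present in 93.9 to 97.9% in control and dexamethasone and in 79.0 and 80.9% with vesicles, and both vesicle libraries lay below the other 4. MSTRG.1757.3, whose structure was not resolved, had 10.7 and 26.05 in control, 0.0102 and 6.12 in dexamethasone, and 0.345 and 0.0339 with vesicles.

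Transcripts of Ncl differed in whether the 98-base intron was kept and in where they start. Of its 10 transcripts, 5 reached 10% of the gene in at least 1 library, and the other 5 held 0.767 to 15.6%. MSTRG.5012.6, fully spliced with 14 exons and 2175 bases, had an FPKM of 54.8 and 121 in control, 26.5 and 14.3 in dexamethasone, and 1.60 and 1.54 with vesicles. MSTRG.5012.4, which keeps the 98-base intron, was listed at 0 in both controls and had 50.6 and 58.3 in dexamethasone and 0.0283 and 4.42 with vesicles. It starts at chr1:86359364 and MSTRG.5012.6 at chr1:86358579, so the intron is not their only difference. MSTRG.5012.5, which keeps the same intron and starts at another place, had 17.8 and 0 in control, 38.8 and 37.9 in dexamethasone, and 0 and 2.03 with vesicles. The intron was thus kept in 14.0 and 0% of the FPKM in control and in 65.8 and 74.4% in dexamethasone. With vesicles it was kept in 0.282 and 40.0%, so that the libraries of this group lay far apart, at a summed Ncl FPKM of 11.9 and 17.7 against 136 and 159 in control.

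Ncl-201, the principal annotated model, ends further downstream than the spliced assembled ones and is 8202 bases long. It had 30.8 and 19.1 in control, 18.0 and 12.8 in dexamethasone, and 8.35 and 7.92 with vesicles. Because the other transcripts were lower still, its share of the gene was 70.1 and 44.8% with vesicles against 22.7 and 11.96% in control and 12.9 and 9.82% in dexamethasone. Weighted by length, these shares were 92.3 and 74.4%, 50.5 and 33.2%, and 33.5 and 26.4%. Ncl-202, annotated as a retained-intron transcript, keeps a 190-base intron at chr1:86352320-86352509 and a 492-base intron at chr1:86352634-86353125, which are other introns than the one of 98 bases. It had 23.7 and 14.9 in control, 1.89 and 5.98 in dexamethasone, and 0.0829 and 0.228 with vesicles, an order opposite to that of the transcripts with the 98-base intron between control and dexamethasone. No annotated small RNA gene lies inside these 3 introns.

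**Figure D3:**
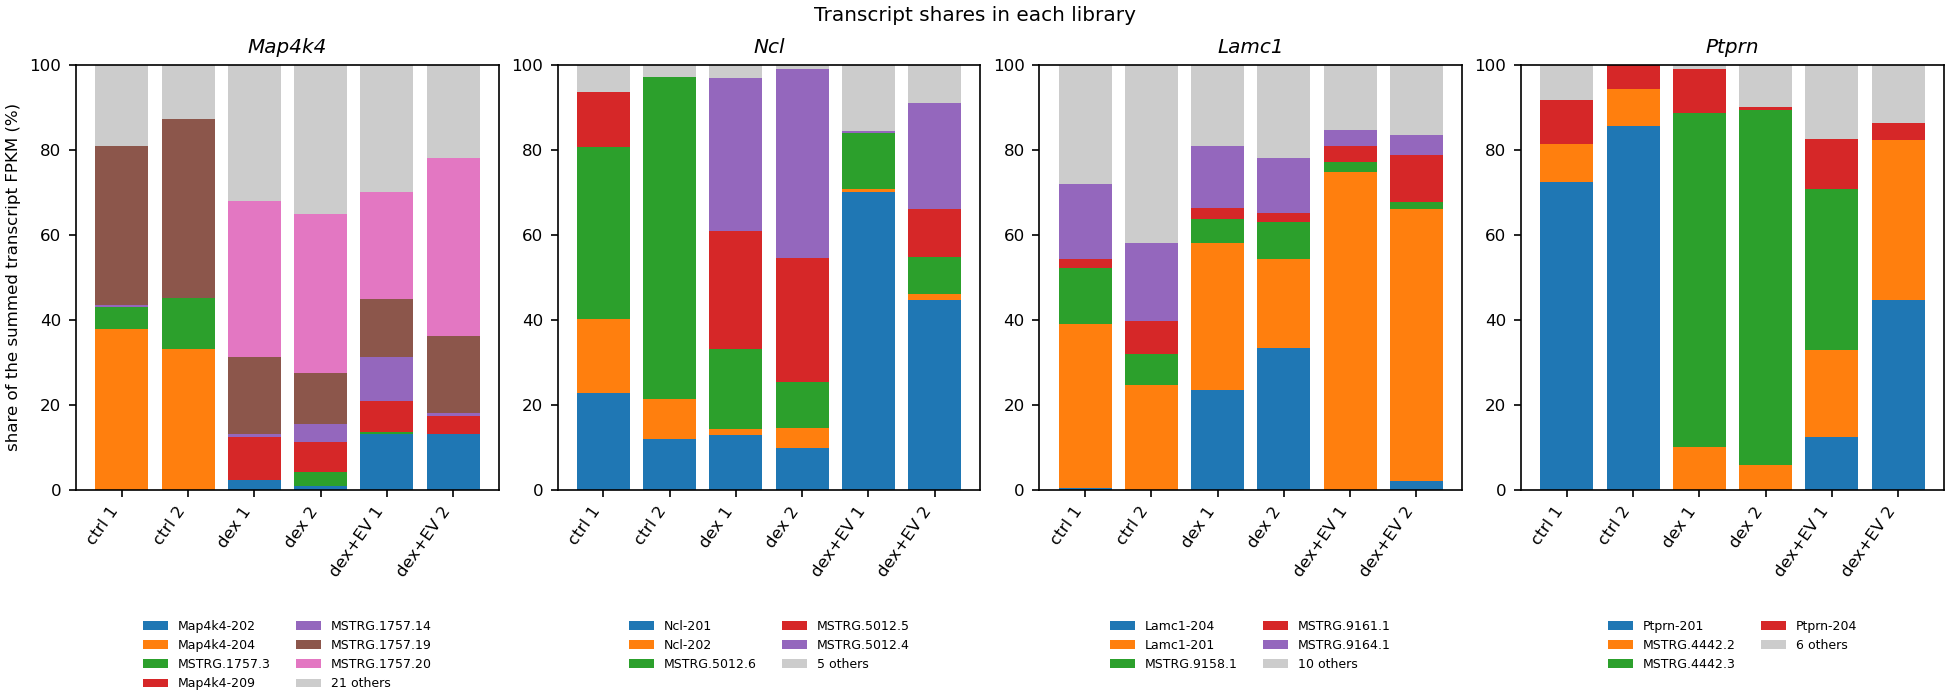
Share of each gene's summed transcript FPKM in each of the 6 libraries, with 1 colour per transcript that reached 10% in at least 1 library and grey for the others. MSTRG.1757.20 of Map4k4 (36.6 and 37.4%), MSTRG.5012.4 of Ncl (36.2 and 44.7%) and MSTRG.4442.3 of Ptprn (78.7 and 83.8%) have a bar in dexamethasone and were listed at 0 in control.

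For Lamc1, the full-length transcript held a larger share of the gene with vesicles than in the other groups, and a 3-exon fragment was present mainly in dexamethasone. Of its 15 transcripts, 5 reached 10% of the gene, and the other 10 held 15.2 to 42.0%. Lamc1-201, with 28 exons and 7622 bases, had an FPKM of 58.5 and 51.0 in control, 54.7 and 37.6 in dexamethasone, and 67.7 and 62.5 with vesicles. Both vesicle libraries were highest, by less than the gap between the dexamethasone libraries. Its share of the gene was 38.6 and 24.6% in control, 34.8 and 21.02% in dexamethasone, and 74.9 and 64.1% with vesicles, and the vesicle group overlapped neither of the others. FPKM divides by length, and with shares weighted by length Lamc1-201 held 89.3 and 82.8%, 80.8 and 68.4%, and 96.8 and 95.7% of the gene in the same order of groups, so the groups were much closer on that scale. Lamc1-204, whose annotated start is incomplete, is 1447 bases long and had 0.509 and 0 in control, 36.8 and 59.4 in dexamethasone, and 0 and 2.06 with vesicles. The groups other than dexamethasone were at or near 0. MSTRG.9156.5, which keeps an 88-base intron, did not exceed 6.15 in any library.

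A further 8 Lamc1 transcripts were single assembled exons of 311 to 1067 bases on the strand of the gene that overlap no exon of a protein-coding model. Their summed FPKM was 87.4 and 144 in control, 56.0 and 76.6 in dexamethasone, and 18.3 and 29.5 with vesicles. The highest of them in control and dexamethasone, MSTRG.9164.1, had 26.8 and 37.8 in control, 22.9 and 23.3 in dexamethasone, and 3.41 and 4.55 with vesicles. MSTRG.9158.1 had 20.04 and 15.2, then 8.70 and 15.6, then 2.11 and 1.47 in the same order of groups. MSTRG.9161.1 went the other way in part, with 10.9 in EPC-EVs replicate 2 against 4.06 and 3.89 in dexamethasone. Both vesicle libraries lay below both dexamethasone libraries for 5 of the 8. The share of all single-exon assembled transcripts with that order was not counted, so this is a description. Over the whole table, the 6112 single-exon assembled transcripts summed to 10088 and 11232 in dexamethasone and to 4630 and 4749 with vesicles, and the 3813 Ensembl transcripts to 25856 and 24654 and to 11046 and 12376. FPKM divides by length, and these short pieces held 57.6 and 69.3% of the summed Lamc1 FPKM in control and 20.2 and 30.2% with vesicles.

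Ptprn had its dominant transcript replaced between control and dexamethasone. Of its 10 transcripts, 4 reached 10% of the gene, and the other 6 held 0 to 17.4%. Ptprn-201, the principal model with 23 exons and 3554 bases, had an FPKM of 15.7 and 10.9 in control, was listed at 0 in both dexamethasone libraries, and had 6.10 and 15.3 with vesicles. MSTRG.4442.3, with 17 exons and 2724 bases, keeps the 338-base intron and starts inside the gene. It was listed at 0 in both controls, had 35.0 and 34.5 in dexamethasone, and had 18.6 in EPC-EVs replicate 1 and 0 in replicate 2. The 338-base intron was thus kept in 0 and 0% of the FPKM in control, 88.7 and 93.6% in dexamethasone, and 53.4 and 0% with vesicles. The vesicle libraries differed from each other, EPC-EVs replicate 1 lying between the other groups and replicate 2 at the control value.

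MSTRG.4442.2 keeps the 225-base intron nearby, whose length is divisible by 3. It had 1.91 and 1.11 in control, 4.44 and 2.38 in dexamethasone, and 10.1 and 12.9 with vesicles, and the intron was kept in 10.9 and 9.26%, 11.3 and 6.45%, and 29.0 and 45.8% of the FPKM. Both vesicle libraries were above the other 4 in FPKM and in share. Ptprn-204, an annotated retained-intron transcript, varied as much within groups as between them, with 2.21 and 0.711, 4.62 and 0.217, and 5.83 and 1.41. Its intron, of 520 bases, is another one again.

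**Figure D4:**
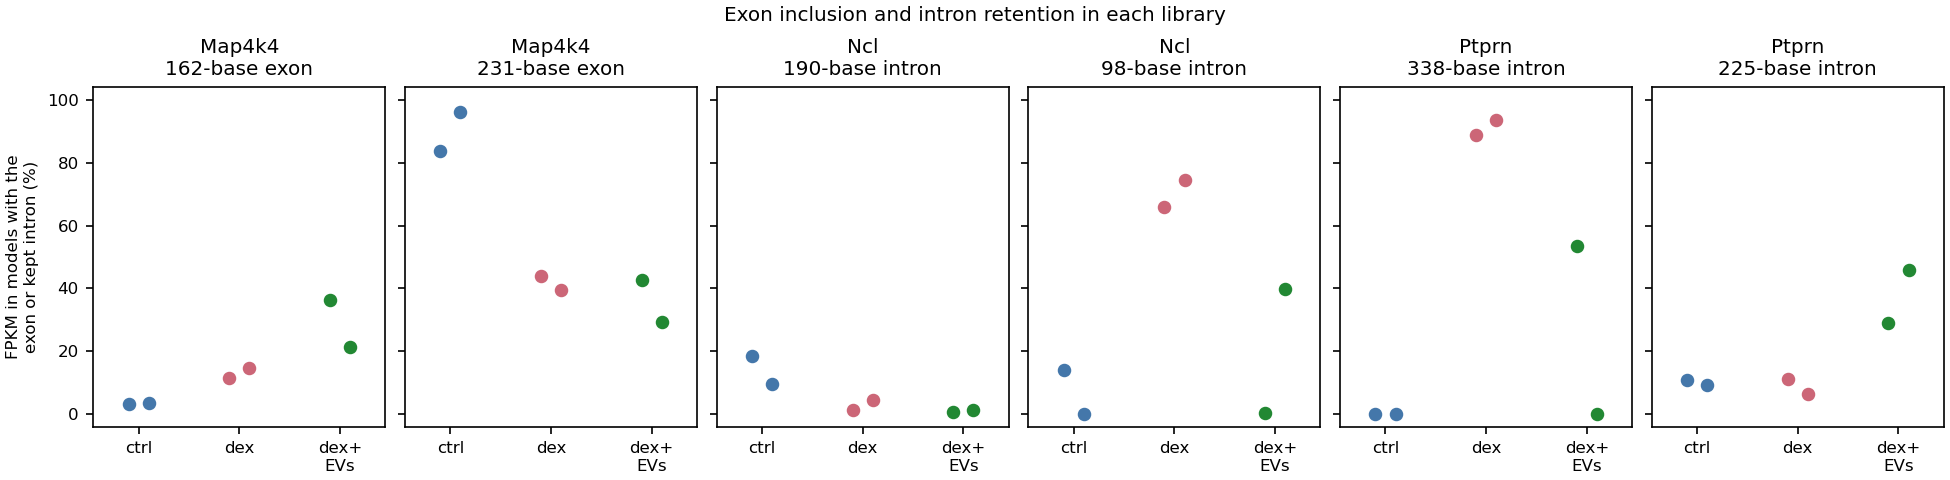
Percentage of FPKM in transcripts that hold an optional exon (Map4k4) or keep an intron (Ncl, Ptprn), out of all transcripts of known structure that span it, with 1 point per library. The 231-base exon was at 83.7 and 96.2% in control against 43.8 and 39.6% in dexamethasone, and the vesicle libraries of the 98-base and 338-base introns lay far apart (0.282 and 40.0%, 53.4 and 0%).

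When the transcripts of the table were tested with limma on log2(FPKM + 1) for dexamethasone + EPC-EVs against dexamethasone, none of the 43 member transcripts that passed the filter was called (smallest adjusted p = 0.0819), and 0.0225% of all transcripts were. At an unadjusted p under 0.05 the count of member transcripts was 20, of which 6 were higher and 14 lower with vesicles, where 31% of all transcripts had such a p. The dexamethasone values of these transcripts served in the choice, so the count and its directions are given as a description. The filter, an FPKM of at least 1 in at least 2 of the 4 libraries, lets in transcripts present in 1 group alone. With a pseudocount of 0.1 in place of 1, limma called 8 of them and 7.84% of all transcripts. On leaving out a library at a pseudocount of 1, it called 7 members without dexamethasone replicate 1 (2.46% of all transcripts) and 2 without dexamethasone replicate 2 (1.27%). Without EPC-EVs replicate 1 it called 1 member (0.213%) and without replicate 2 it called 2 (0.161%). The median log2 difference of all transcripts in this contrast was -0.45. After each library was scaled to one median, 17 members had an unadjusted p under 0.05, 8 higher and 9 lower, where 27.7% of all transcripts did. Against control, 1 of 44 member transcripts, Map4k4-204, was called (adjusted p = 0.0466, limma), where 0.115% of all transcripts were, but the control values of this transcript served in the choice. None was called without a filter, with a replicate block or without either EPC-EVs replicate. The count was 17 with a pseudocount of 0.1 (11.5% of all transcripts), 11 with all 6 libraries in one fit (5.36%), 12 without control replicate 1 (9.08%) and 1 without control replicate 2 (0.171%). In dexamethasone against control, the contrast of the choice, 0.0582% of all transcripts were called, and nothing about the members is read from it.

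How far the composition of a gene moved was summarised as the reassigned share, which is the sum of the absolute differences of the transcript shares of 2 libraries divided by 2. It is 0% for the same composition and 100% where no transcript is shared. Between dexamethasone and control it was 68.5 to 76.2% for Map4k4 over the 4 pairs of libraries, 50.8 to 74.0% for Ncl, 27.3 to 38.3% for Lamc1 and 80.7 to 93.7% for Ptprn. Between replicates of these groups it did not exceed 16.6% for Map4k4, 35.5% for Ncl, 21.6% for Lamc1 and 14.9% for Ptprn. Such separation was seen in 7.83% of the 396 genes of the table with at least 2 transcripts and a summed FPKM of at least 5 in every library, and the same most abundant transcript in both replicates of a group but another in the other group in 3.03%. All 4 members showed the former, and Ncl and Ptprn the latter. Over Ensembl transcripts only, or with shares weighted by length, 3 members separated. The mean reassigned share of Ncl was 62.8%, and 23.6% over Ensembl transcripts only, and that of Lamc1 34.2%, and 17.5% when weighted by length. These values used the contrast of the choice, so nothing about the members is read from their place among the 396 genes. Among the 396 genes, the median reassigned share between the control replicates was 43.7%, and their most abundant transcripts differed in 68.7%. The members had 13.1 to 35.5% there. A choice by differences from control favours genes whose control libraries agree, so this is a description only.

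The vesicle libraries were not part of the choice, but the comparison shares the dexamethasone libraries with it. Between dexamethasone + EPC-EVs and dexamethasone the reassigned share was 24.3 to 34.6% for Map4k4 against at most 22.6% between replicates, 38.6 to 77.5% for Ncl against 37.4%, and 42.7 to 58.3% for Lamc1 against 19.6%. For Ptprn it was 40.9 to 85.6% and did not clear the 50.8% between the vesicle replicates. The 3 of 4 members that separated compare with 35.1% of the 396 genes. Over Ensembl transcripts only, 2 separated. Against control, the vesicle libraries of Map4k4 differed by 68.3 to 75.3%, those of Ncl by 51.5 to 75.9%, those of Lamc1 by 37.2 to 53.5% and those of Ptprn, which again did not clear the vesicle replicates, by 39.5 to 73.3%. For Map4k4 the vesicle libraries were thus nearer in composition to dexamethasone than to control, and for Ncl, Lamc1 and Ptprn the ranges against both groups overlapped.

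**Figure D5:**
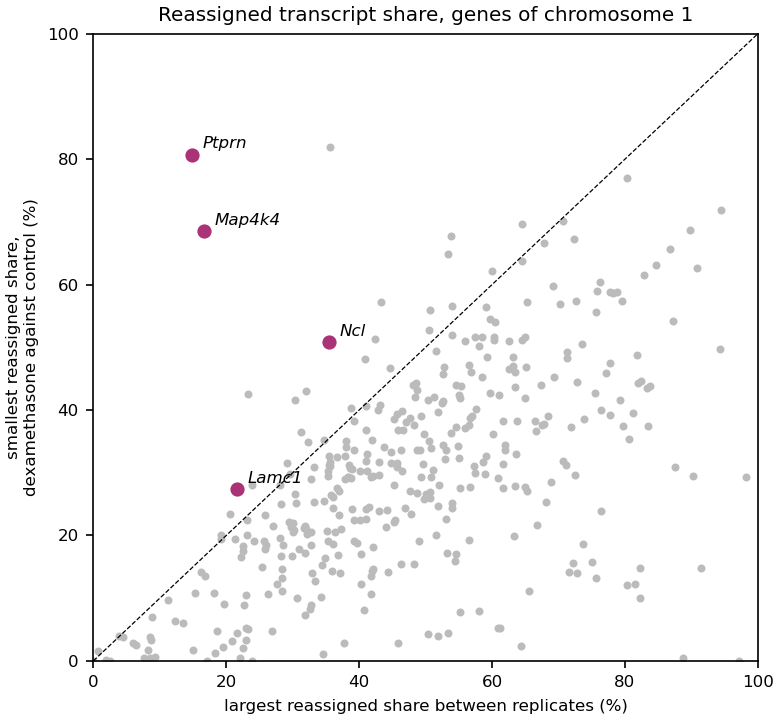
Smallest reassigned share between a dexamethasone and a control library against the largest between replicates of these groups, with 1 point for each of the 396 genes and the 4 members in purple. Points above the dashed line of equality separate the groups. Ptprn (80.7%) and Map4k4 (68.5%) lie far above the line, and Lamc1 (27.3%) just above it, on the contrast by which the members were chosen.

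Genes whose level over the 6 libraries was most like that of a member were sought among 9217 genes averaging at least 10 CPM, by the root mean square difference of log2 CPM after centring each gene. For Ncl these were Hnrnpd (0.12), Osmr (0.12) and Gm13340 (0.13). Hnrnpd, an RNA-binding protein that regulates mRNA decay, had 207 and 217 CPM in control, 166 and 153 in dexamethasone, and 29.0 and 25.4 with vesicles. For Map4k4 they were Rnf6 (0.04), Ubxn4 (0.05) and Tia1 (0.06), for Lamc1 Naca (0.03), Myh10 (0.04) and Edem1 (0.04), and for Ptprn Afg3l1 (0.06), Taok2 (0.06) and Fkbp1a (0.06). Each of the last 3 had its lowest value in control replicate 2, as Ptprn did, which the way they were picked favours.

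The other genes of the members' pathways were counted from lists, with the edgeR test at an adjusted p under 0.05, to be read against the 39.8% of all genes called in dexamethasone + EPC-EVs against dexamethasone. Of 21 other nucleolar ribosome biogenesis genes, 10 rose and 3 fell in dexamethasone + EPC-EVs against dexamethasone, and 8 did not pass. In this contrast Ncl was thus with the smaller group. Against control, 4 of the 21 rose, 4 fell and 13 did not pass, where 36.4% of all genes were called. In dexamethasone + EPC-EVs against dexamethasone, Npm1, nucleophosmin, fell from 375 ± 47.1 to 125 ± 0.437 CPM (SD, n = 2). Bop1, a factor of large ribosomal subunit assembly, rose from 18.1 ± 2.96 to 69.1 ± 3.36 CPM. Rrp9, a protein of the small nucleolar particles that process ribosomal RNA, rose from 2.57 ± 3.23 to 13.2 ± 1.25 CPM. The median log2 difference of this list was 0.51, where that of all genes was 0.01.

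Of 19 tested genes of the MAP4K, JNK and Hippo list, 3 rose and 4 fell, with a median of -0.21, a share close to the 39.8% of all genes. Stk3, a Hippo pathway kinase, fell from 134 ± 18.5 to 33.0 ± 1.58 CPM, and Mob1b, a coactivator of the LATS kinases, from 130 ± 11.5 to 55.1 ± 2.86. Map3k11, a kinase upstream of JNK, rose from 15.1 ± 1.33 to 38.4 ± 0.316 CPM. Of 16 tested genes for laminins, basement membrane and laminin receptors, 6 rose and 3 fell, with a median of 0.09, where 39.8% of all genes were called. Col4a1, a collagen IV chain, rose from 329 ± 9.93 to 1135 ± 225 CPM. Nid1, which links laminin to collagen IV, fell from 303 ± 11.4 to 98.3 ± 12.4, and the laminin receptor subunit Itga6 from 22.5 ± 1.89 to 6.997 ± 6.01. Only 7 of 19 other dense-core vesicle genes had enough counts to test, and 1 was called. This was Pam, which amidates peptide hormones and rose from 106 ± 0.525 to 206 ± 27.6 CPM.

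Regulators of splicing and of transcript decay were counted in the same way, since the members differ in exons and kept introns. Of 18 SR proteins and their kinases, 1 rose and 8 fell in dexamethasone + EPC-EVs against dexamethasone, with a median log2 difference of -0.31, where 39.8% of all genes were called. Srsf11 fell from 130 ± 3.30 to 41.5 ± 0.909 CPM and Srsf10 from 203 ± 14.96 to 66.1 ± 3.65, while Srsf7 rose from 17.4 ± 4.003 to 41.7 ± 4.05 (SD, n = 2). Of 14 nonsense-mediated decay factors, 3 rose and 4 fell, with a median of -0.26, against the same share of all genes. Upf3b and Upf3a, which join exon junctions to the decay machinery, fell from 74.1 ± 11.8 to 14.9 ± 3.10 and from 34.4 ± 1.93 to 11.3 ± 0.542 CPM. Smg5, needed to end the cycle of the decay factor Upf1, rose from 49.0 ± 3.75 to 125 ± 8.02. In dexamethasone against control, the edgeR test called 0 of the 96 tested genes on these 6 lists, 15 had an unadjusted p under 0.05, where 10.9% of all genes did, and DESeq2 called 1 of the 129 genes it called in all, Map4k3, a kinase of the same family as Map4k4.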

How the data were processed

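RNA from 6 libraries of MC3T3-E1 Subclone 14 cells, 2 per group, was sequenced. Per the study's methods and the submitters' processing notes, the authors aligned reads with HISAT2 to GRCm38, counted fragments per gene with HTSeq 0.6.1 and derived FPKM of transcripts with StringTie; DESeq2 1.26.0, as named in those notes, served their own comparisons, which were not used. The deposited gene table holds raw counts and gene FPKM, and the deposited transcript table holds FPKM of annotated and assembled transcripts of chromosome 1. Groups came from the sample labels; another text of the series gives a different treatment time.

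The members and gene lists were chosen with earlier results of these data known. Counts were tested with edgeR 4.0.16 (TMM, filterByExpr, quasi-likelihood, 4 libraries per contrast, Benjamini-Hochberg over all genes), and transcripts with limma 3.58.1 on log2(FPKM + 1), which understates changes of low transcripts, after a filter of FPKM of at least 1 in at least 2 libraries. R 4.3.3 was used, and the tests were tested on simulated data. Structures of assembled transcripts were sought among annotated junctions (GENCODE vM21), and exon percentages are sums of FPKM over the transcripts so resolved. Exact 0 values of FPKM may be failed estimates and are reported as listed. Transcripts with a share of at least 10% in a library are named, with the 3 genes most similar to each member and up to the 3 largest called differences per list.

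With 2 libraries a group, an exact permutation test of a single value cannot go below p = 0.333, so none was run on shares. The depth of 5146760 to 13182014 fragments puts 3 counts at 0.228 to 0.583 CPM of the unadjusted library total. The depth behind a transcript's FPKM is unknown. Alternatives were other normalizations and filters, DESeq2 1.42.0, a pseudocount of 0.1, other scalings, all 6 libraries in one fit, a replicate block and leaving out each library, and, added after seeing the data, shares weighted by transcript length.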

Additional observations from a re-analysis of the deposited data

How the results depend on the processing

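Of 72 alternative values of the members' gene log2 differences in the vesicle contrasts, 67 kept their direction and side of the threshold, none changed sign, 4 lost a call (all of Map4k4, on leaving out a library) and 1 gained one (Ptprn against control, without control replicate 1). The cause was not tested. Samples with the same replicate number did not deviate together (correlations 0.0619, 0.00732 and 0.0114). The numbers are used here to name libraries, and whether they mark a pairing is not known from these values. With a replicate block, 0 transcripts were called in each of the 3 contrasts, and 43 genes were called in dexamethasone against control in place of 7, where DESeq2 called 129 and no filter gave 248. Leaving out a library, this count was 9 to 2200, the highest without control replicate 1, and the genes called in dexamethasone + EPC-EVs against dexamethasone were 3250 to 4813, in place of 5397.

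For transcripts, dexamethasone + EPC-EVs against dexamethasone gave 1 call, 349 with a pseudocount of 0.1, 3 with all 6 libraries and 6 to 75 on leaving out a library, the highest without dexamethasone replicate 1. The contrast with control gave 5 calls, 502 with a pseudocount of 0.1, 0 without a filter, 233 with all 6 libraries and 0 to 266 on leaving out a library, the highest without control replicate 1. Dexamethasone against control gave 3 calls, 0 with a pseudocount of 0.1, 5 without a filter or with all 6 libraries, and 1 to 10 on leaving out a library.

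Between dexamethasone + EPC-EVs and dexamethasone, 3 members separated, and 2 with Ensembl transcripts only or 3 with shares weighted by length. The mean reassigned share of Ncl was 57.2%, and 20.04% over Ensembl transcripts only, that of Map4k4 30.8%, and 50.7% over Ensembl transcripts only, and that of Lamc1 50.3%, and 22.1% when weighted by length, an alternative chosen after seeing the data.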
